A study of Mus musculus with 3 samples.

Results

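The olfactory and vomeronasal receptor genes of the mouse were followed through the peak lists of a chromatin immunoprecipitation sequencing (ChIP-seq) experiment on the nucleoporin Seh1. A gene was a member if its name in the Seh1 or the IgG peak list began with Olfr (odorant receptors), Vmn1r (vomeronasal type 1 receptors) or Vmn2r (vomeronasal type 2 receptors). The authors' annotation gives each peak to the gene with the nearest transcription start site (TSS), so a peak "given to" a receptor gene may lie far from it. The rule found 278 genes among 9838 gene names in both lists: 168 Olfr, 52 Vmn1r and 58 Vmn2r genes. Of the 16113 Seh1 peaks 241 were given to 195 of these genes, and of the 5314 IgG peaks 169 were given to 118 of them.

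All samples came from primary neural stem cells of wild-type mice, cultured from the cortex of newborn (P0) pups with EGF and bFGF and described in the labels as kept in growth medium. The labels list 1 library each of a Seh1 immunoprecipitation, a control immunoprecipitation with IgG, which has no intended target on chromatin, and an input, which was not analysed here. No further allele, agent or time separates the groups, and the labels do not say how many pups or cultures were pooled. Peak lists hold no expression values, so the labelled cell type was not checked against its markers. There were no replicates, so no test compares the antibodies. Shares carry 95% exact binomial (Clopper-Pearson) intervals, densities exact Poisson intervals and ratios intervals on the log scale. All of these cover counting error only, and they treat neighbouring peaks as independent, which they are not. Every deposited peak had the score 0 and read depth is unknown, so the width of a peak is the only measure of its size, and the longer Seh1 list cannot be read as more binding.

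Odorant receptors are G protein-coupled receptors of the olfactory epithelium, where each mature sensory neuron expresses a single chosen gene of the family while the others are held in heterochromatin. Vmn1r and Vmn2r genes encode the pheromone receptors of the vomeronasal organ. Olfr and Vmn1r genes usually have their coding sequence in a single exon, Vmn2r genes spread theirs over several, and all of these families form tandem arrays with many pseudogenes and near-identical copies. Seh1 is a subunit of the Y-shaped scaffold complex of the nuclear pore and of the GATOR2 complex of nutrient signalling. Silent receptor arrays are known to lie near the nuclear periphery in many cell types.

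In both lists receptor peaks were mostly intergenic. A small set of Seh1 peaks sat close to a receptor start site, mostly on exons. By gene, 1.37% of protein-coding receptors had a Seh1 peak within 1 kb, against 1.11% of all protein-coding genes. RefSeq promoter windows of GRCm38.p6 (the assembly of mm10), from 250 bases before to 50 bases after the TSS, were matched for 234 of the 278 members. Of 1272 receptor windows 4 shared bases with a Seh1 peak (Olfr641, Olfr12, Olfr93 and Olfr287), 0.314% (0.0857 to 0.803) where the share of all 32851 windows was 0.6%. With an IgG peak 0 receptor windows shared bases, where the share of all windows was 0.0517%. Receptor windows were thus not reached more often than others. The first 3 of these 4 are shown as receptor windows that a Seh1 peak reached, whether or not it covered the start itself. The Olfr287 peak covered 50 bases of its window, all in the 5′ UTR, and that window is not printed. Each runs 5′ to 3′ on the gene's strand, with the bases inside the Seh1 peak in capitals. Olfr641 is shown at chr7:104039548-104039847 (plus strand) and Olfr93 at chr17:37151921-37152220 (minus strand), both with the whole 300-base window. Olfr12 is shown at chr1:92619631-92619880 (plus strand) with its 250 upstream bases only.
Olfr641: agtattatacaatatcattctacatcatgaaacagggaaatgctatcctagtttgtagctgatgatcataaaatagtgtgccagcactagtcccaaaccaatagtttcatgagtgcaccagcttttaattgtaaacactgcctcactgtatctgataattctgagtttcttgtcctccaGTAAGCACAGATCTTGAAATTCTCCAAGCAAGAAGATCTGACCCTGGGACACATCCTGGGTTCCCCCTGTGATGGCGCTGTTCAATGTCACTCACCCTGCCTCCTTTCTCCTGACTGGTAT
Olfr12: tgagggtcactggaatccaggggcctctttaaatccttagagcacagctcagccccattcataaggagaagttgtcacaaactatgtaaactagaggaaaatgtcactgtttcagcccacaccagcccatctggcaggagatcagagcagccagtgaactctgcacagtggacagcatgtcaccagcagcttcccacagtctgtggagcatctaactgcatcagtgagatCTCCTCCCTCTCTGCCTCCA
Olfr93: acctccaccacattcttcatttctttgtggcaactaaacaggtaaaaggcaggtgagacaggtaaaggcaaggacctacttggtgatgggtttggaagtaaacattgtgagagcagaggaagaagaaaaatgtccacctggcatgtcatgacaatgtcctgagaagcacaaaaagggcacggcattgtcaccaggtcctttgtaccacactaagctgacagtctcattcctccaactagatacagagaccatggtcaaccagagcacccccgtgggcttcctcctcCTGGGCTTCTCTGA
The Olfr641 peak covered 121 bases of its window, on both sides of the annotated start. The Olfr12 peak covered 70 bases of its window. These were the last 20 of the 250 upstream bases and the 50 bases after the start, which are not printed. The Olfr93 peak covered the last 14 of the 300 window bases, inside the coding part. The transcript models of Olfr641 and Olfr93 begin with the letters ATG, as do 969 of the 1272 receptor windows (76.2%) against 5.83% of all 32851 windows. For most receptors the annotated TSS thus stands at a start codon, which is not so for most other genes. Shares of windows with a peak or a pattern therefore compare unlike stretches, and cannot be read as shares of receptor promoters. Of the letters CCCNNGGG, a pattern of the Ebf (Olf-1) factors of olfactory neurons, the Olfr93 and Olfr287 windows hold 1 match each and the Olfr641 and Olfr12 windows hold 0. The pattern occurred in 4.17% of receptor windows (3.06% of Olfr, 0.485% of Vmn1r and 19.5% of Vmn2r) and in 13.7% of all windows. TAATTA, a core that homeodomain factors such as Lhx2 and Emx2 bind, was in 0 of these 4 windows, in 16.6% of receptor windows (18.6% of Olfr, 7.28% of Vmn1r and 16.9% of Vmn2r) and in 5.29% of all windows. Both patterns read the same on either strand and cannot share bases.

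Receptor genes took a smaller share of the Seh1 list than of the IgG list. They held 1.50% of Seh1 peaks (95% interval 1.31 to 1.70) and 3.18% of IgG peaks (2.72 to 3.69), a ratio of 0.470 (0.387 to 0.571). Olfr genes held 149 Seh1 peaks (0.925% of that list) and 90 IgG peaks (1.69%), a ratio of 0.546 (0.421 to 0.708). For Vmn1r genes the counts were 43 (0.267%) and 31 (0.583%), a ratio of 0.457 (0.289 to 0.725). For Vmn2r genes they were 49 (0.304%) and 48 (0.903%), a ratio of 0.337 (0.226 to 0.501). The ratio lay below 1 in all 3 families, and the families' intervals overlapped one another. A single gene, Olfr161, held 25 of the 169 IgG peaks, and the IgG share without it was 2.723%.

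Counted by gene rather than by peak, receptors were given Seh1 peaks less often than the background of protein-coding genes. Of 1461 protein-coding receptor genes 192 were given at least 1 Seh1 peak, or 13.1% (11.5 to 15.0), where the share over all 21775 protein-coding genes was 31.9%. The share was 11.3% for Olfr (125 of 1109), 14.8% for Vmn1r (34 of 229) and 26.8% for Vmn2r (33 of 123). At least 1 IgG peak was given to 116 receptor genes, or 7.94% (6.60 to 9.45), against 11.3% of all protein-coding genes. That share was 5.14% for Olfr (57 genes), 11.8% for Vmn1r (27 genes) and 26.0% for Vmn2r (32 genes). Vmn2r genes stood above Olfr genes in both lists with intervals that did not overlap, and their Seh1 and IgG shares were alike within counting error, although the Seh1 list is 3.03 times as long. Peaks of both lists were given to 34 protein-coding receptor genes (2.33%), against 6.42% of all protein-coding genes. Of 603 pseudogenes that carry a receptor name 3 were given a peak in each list (0.498%), where the shares of all 10330 pseudogenes of the table were 1.36% for Seh1 and 0.678% for IgG. Which of these pseudogenes the authors' annotation could give a peak is not known here.

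**Figure D1:**
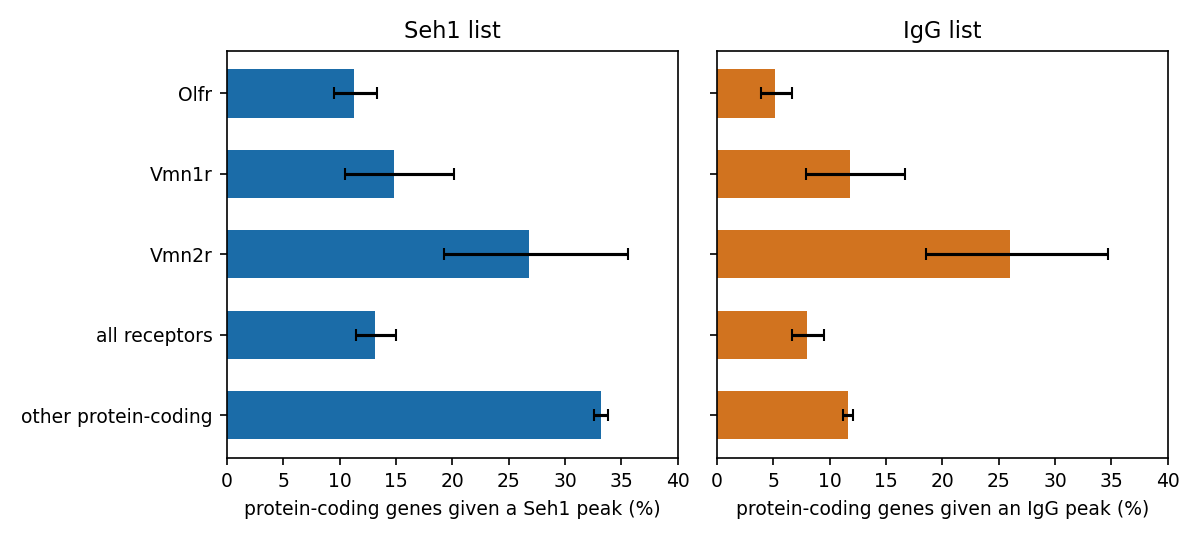
Share of protein-coding genes given at least 1 Seh1 peak (left) or at least 1 IgG peak (right), in percent, for the 3 receptor families, all receptors and all other protein-coding genes; bars are shares and lines are 95% exact binomial intervals. All receptors stand at 13.1% against 33.2% of other genes in the Seh1 list and at 7.94% against 11.6% in the IgG list, and Vmn2r genes have the tallest receptor bar in both.

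Each peak goes to the nearest start site, so the spacing of genes may enter these shares. Spacing was measured between midpoints of protein-coding gene models, which leaves out the pseudogenes of the arrays. The stretch nearest to a receptor's own midpoint had a median of 26.2 kb, against 54.1 kb for other protein-coding genes. It was 22.5 kb for Olfr, 35.4 kb for Vmn1r and 94.5 kb for Vmn2r. Receptor gene models also had a median length of 951 bp against 19124 bp for other genes. The part of spacing in the shares by gene was not tested, and peaks per megabase (Mb), which do not use the nearest start site, are given next.

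By density, receptor arrays held more IgG peaks than the rest of the genome. Over all clusters their Seh1 density was alike within counting error. It was lower than in the rest when 1 Mb bins dense in IgG peaks were left out. With genes linked within 500 kb the Seh1 density was 4.90 per Mb (4.35 to 5.50). A lower Seh1 density was also seen in arrays not mixed with other genes, a subset picked afterwards. Receptor genes of the RefSeq table were joined into a cluster where neighbours lay within 1 Mb of each other and at least 5 were linked. This gave 46 clusters over 67.2 Mb with 1967 of the table's 2065 receptor genes and pseudogenes. Inside them were 398 Seh1 peaks, 5.92 per Mb (5.36 to 6.54), against 6.03 per Mb (5.94 to 6.13) over the rest of the 21 placed chromosomes. There were 389 IgG peaks, 5.79 per Mb (5.23 to 6.40), against 1.88 per Mb (1.82 to 1.93). In the 38 clusters where protein-coding receptors outnumber other protein-coding genes, a selection made after the densities were seen, there were 249 Seh1 peaks at 4.53 per Mb (3.99 to 5.13) and 147 IgG peaks at 2.68 per Mb (2.26 to 3.15). The Seh1 density then lay below and the IgG density above that of the rest, with intervals that did not overlap it.

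1 cluster of pseudogenes moved the densities over all clusters. The cluster from Vmn2r-ps15 to Vmn2r-ps20 (chr4:145701675-147521814) holds 6 Vmn2r pseudogenes and 10 other protein-coding genes, and its 50 Seh1 and 153 IgG peaks were all given to genes that are not receptors. Without it the densities were 5.325 Seh1 and 3.611 IgG peaks per Mb. Its megabases are also among 14 bins of 1 Mb that each held at least 20 IgG peaks. Without those bins the clusters had 5.22 Seh1 peaks per Mb (4.67 to 5.80) against 5.97 in the rest, and 3.27 IgG peaks per Mb (2.84 to 3.74) against 1.72.

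The Seh1 densities of the families had overlapping intervals. The density was 5.50 per Mb (4.76 to 6.33) in 30 clusters mostly of Olfr genes and 5.28 (4.24 to 6.51) in 6 mostly of Vmn1r genes. In 10 clusters mostly of Vmn2r genes it was 7.65 (6.31 to 9.19), and 4.89 (3.77 to 6.25) without the dense bins. IgG density in the same clusters was 3.45, 3.66 and 13.8 per Mb, and 2.81, 3.66 and 3.98 without the dense bins. All of these IgG densities were above the 1.88 per Mb of the rest.

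**Figure D2:**
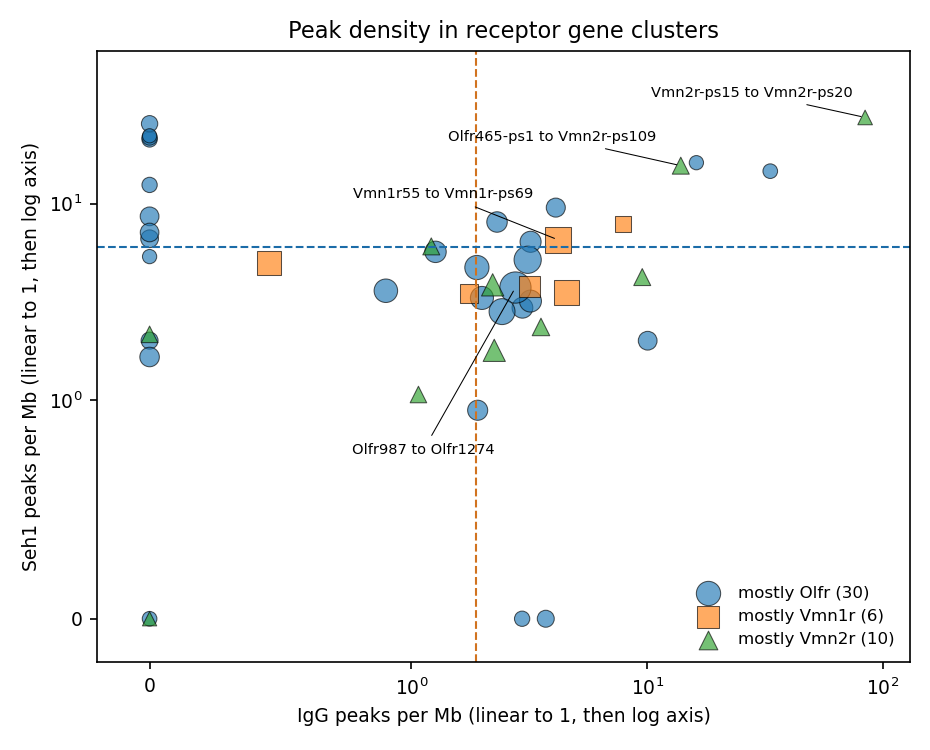
Peaks per Mb in each of the 46 receptor clusters, IgG on the horizontal and Seh1 on the vertical axis, both linear up to 1 and logarithmic above; each marker is a cluster, its shape the family with the most genes and its area larger with more genes, and the dashed lines are the densities of the rest of the placed chromosomes (1.88 and 6.03). Most clusters lie below the Seh1 line, 14 lie at 0 IgG peaks, and the cluster from Vmn2r-ps15 to Vmn2r-ps20 stands apart at 84.1 IgG and 27.5 Seh1 peaks per Mb.

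Single clusters ranged widely. Of the 46, 42 held a Seh1 peak and 32 an IgG peak: 30 held both, 12 only Seh1 peaks, 2 only IgG peaks and 2 neither. The largest array by number of genes, Olfr987 to Olfr1274 (chr2:85330967-90401674, 293 genes and pseudogenes), held 19 Seh1 and 14 IgG peaks, all given to receptors, or 3.75 (2.26 to 5.85) and 2.76 (1.51 to 4.63) per Mb. Its Seh1 interval lay below the density of the rest, and its IgG interval held that of the rest. The mixed array Vmn1r55 to Vmn1r-ps69 (chr7:5146490-13244458, 123 genes and pseudogenes) had the most Seh1 peaks of any cluster, 53, and 34 IgG peaks. Of these 23 and 22 were given to receptors.

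The cluster Olfr722 to Olfr1507 (chr14:49894258-52495695), where 38 protein-coding receptors stand among 47 other protein-coding genes, held 21 Seh1 and 6 IgG peaks, of which 5 and 2 were given to receptors. Another Vmn1r array, Vmn1r91 to Vmn1r183 (chr7:20101158-24055691), held 14 Seh1 and 18 IgG peaks. The small cluster Vmn1r-ps137 to Olfr15 (chr16:3088644-3839913) held 11 Seh1 and 25 IgG peaks, all 25 of them given to Olfr161. In 2 further clusters rich in peaks few or none were given to receptors: Olfr465-ps1 to Vmn2r-ps109 on chromosome 13, with 27 Seh1 and 24 IgG peaks, and Vmn2r-ps90 to Olfr374 on chromosome 8, with 17 of each.

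Receptor peaks lay nearer to their start site than other peaks in both lists. The median distance of the peak centre to the TSS was 13.4 kb (11.0 to 16.5) for Seh1 receptor peaks, against 38.4 kb (37.3 to 39.2) for other Seh1 peaks. It was 13.1 kb (9.59 to 16.8) for IgG receptor peaks, against 59.5 kb (56.4 to 62.3) for other IgG peaks. By family the Seh1 medians were 9.27 kb for Olfr, 14.2 kb for Vmn1r and 26.2 kb for Vmn2r genes, and the IgG medians were 13.0, 13.1 and 13.9 kb. Without Olfr161 the Olfr medians were 8.45 kb for Seh1 and 7.45 kb for IgG. The midpoints of protein-coding receptor genes are also more closely spaced than those of others, and the part of spacing in these distances was not tested. Seh1 receptor peaks fell upstream of the TSS in 49.0% and IgG receptor peaks in 56.8% of cases. Without Olfr161, whose peaks all lay upstream, these were 47.2% and 49.3%. Peak widths were alike, with a median of 263 bp for Seh1 receptor peaks (266 bp for other Seh1 peaks) and 274 bp for IgG receptor peaks (266 bp).

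The lists parted within 1 kb of the start site. There lay 21 of 241 Seh1 receptor peaks, 8.71% (5.47 to 13.0), against 1.82% of other Seh1 peaks, and 2 of 169 IgG receptor peaks, 1.18% (0.144 to 4.21), against 0.702%. Between 1 and 10 kb the receptor shares were 32.0% in the Seh1 and 42.0% in the IgG list. Beyond 100 kb they were 10.4% and 17.8%, against 25.3% and 37.5% of other peaks. Olfr161 held 7 of these 25 Seh1 and 25 of these 30 IgG receptor peaks, and without it the shares beyond 100 kb were 7.73% (4.64 to 11.9) and 3.47% (1.14 to 7.92), in the reverse order and with intervals that overlap. Counted over genes, 20 protein-coding receptors had a Seh1 peak within 1 kb, or 1.37% (0.838 to 2.11), where the share of all protein-coding genes was 1.11%. For IgG it was 1 gene, 0.0684% (0.00173 to 0.381), against 0.115%. Both intervals held the background share, so the high share among Seh1 receptor peaks stood beside a low number of receptor genes given any Seh1 peak.

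**Figure D3:**
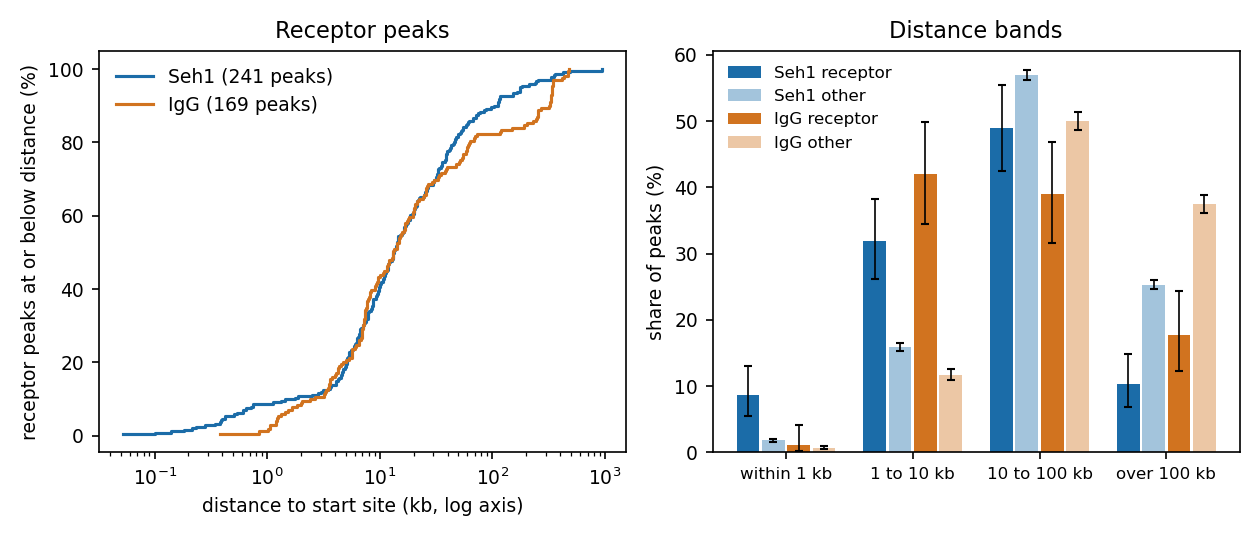
Left, cumulative share of receptor peaks (percent) at or below a distance from peak centre to start site (kb, log axis) for 241 Seh1 and 169 IgG peaks; right, share of peaks in 4 distance bands for receptor and other peaks of each list, with 95% exact binomial intervals. The curves run together between about 3 and 30 kb and part below 1 kb, where 8.71% of Seh1 and 1.18% of IgG receptor peaks lie.

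The 21 Seh1 peaks near a start site belonged to 21 genes, 15 Olfr, 2 Vmn1r and 4 Vmn2r. The annotation class was exon for 15, promoter for 4, 5′ UTR for 1 and intron for 1, and 13 lay in the exon of a single-exon transcript. Downstream of the start were 18 of them. The 3 upstream were Vmn1r87 at -611 bp, Vmn2r1 at -644 bp and Olfr374 at -755 bp, which were named after their values were seen. Closest to the start were Olfr641 at 52 bp, Olfr12 at 101 bp, Olfr287 at 140 bp, Vmn2r54 at 182 bp, Vmn2r55 at 216 bp, Olfr93 at 232 bp and Olfr281 at 281 bp. Further in lay Olfr1390 at 345 bp, Olfr532 at 378 bp, Olfr211 at 385 bp and Olfr1423 at 399 bp. The IgG peaks within 1 kb were in introns of Vmn2r genes, Vmn2r115 at 382 bp and Vmn2r123 at 845 bp. Of the 121 IgG peaks given to Olfr and Vmn1r genes 0 lay within 1 kb, which allows a share of up to 2.48%.

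Seh1 peaks on receptor exons were largely the same peaks, since 15 of the 16 lay within 1 kb of a start site. The exon class held 16 Seh1 receptor peaks (6.64%, 3.84 to 10.6, against 5.36% of other Seh1 peaks), 13 given to Olfr, 1 to Vmn1r and 2 to Vmn2r genes. These were 8.72%, 2.33% and 4.08% of the Seh1 peaks of each family, with intervals that overlapped. The exon class held 4 IgG receptor peaks (2.37%, 0.649 to 5.95, against 1.05% of other IgG peaks), all given to Vmn2r genes. Both receptor intervals held the share of the other peaks. The widest on Seh1 exons was 392 bp at Olfr93 (chr17:37151543-37151934, exon 1 of 1), the gene whose coding start is printed above. It was followed by 370 bp given to Olfr287, which lay in the last exon of a neighbouring transcript, 353 bp at Olfr281 (chr15:98456417-98456769) and 289 bp at Olfr211 (chr6:116493852-116494140). Olfr1347 and Olfr1491 (267 bp each), Vmn2r55 (265 bp) and Olfr1423 (263 bp) were close to the minimum width of 243 bp that 27.8% of Seh1 receptor peaks had. The IgG exon peaks measured 556 bp at Vmn2r117 (exon 3 of 6), 469 bp at Vmn2r114 (exon 2 of 6), 245 bp at Vmn2r123 (exon 3 of 6) and 236 bp at Vmn2r115 (exon 5 of 6). Over all receptor gene models shorter than 1200 bp, 1139 genes with 1.09 Mb, there were 11 Seh1 peaks, 10.1 per Mb (5.02 to 18.01), and 0 IgG peaks, which allows up to 2.75 per Mb. The Seh1 interval held the 6.03 per Mb of the rest of the genome, and the IgG limit lay above its 1.88 per Mb, so neither differed from it at this count. The treatment of multiply mapped reads was not given in the sources used here, and peaks on near-identical receptor copies cannot be assigned to 1 copy with certainty.

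Repeats set the receptor peaks apart from the rest of the Seh1 list, less so from the rest of the IgG list, and the lists from each other. LINE-1 (L1) elements are retrotransposons that copy themselves through RNA, and LTR elements are the remains of endogenous retroviruses, of which the ERVK family includes the IAP and ETn elements still mobile in mice. The annotation names a repeat at the peak centre only where the peak is intronic or intergenic. A repeat was named for 73.0% (67.0 to 78.5) of Seh1 receptor peaks against 39.3% of other Seh1 peaks, and for 64.5% (56.8 to 71.7) of IgG receptor peaks against 51.6% of other IgG peaks. Among intergenic peaks alone these shares were 81.7% against 50.4% for Seh1, and 70.4% against 59.6% for IgG.

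L1 was at the centre of 77 Seh1 receptor peaks, 32.0% (26.1 to 38.2) against 9.86% of other Seh1 peaks, a ratio of 3.24 (2.68 to 3.92). Among intergenic peaks alone the shares were 35.1% and 13.8%, a ratio of 2.55 (2.10 to 3.10). In the IgG list L1 was at 73 receptor peaks, 43.2% (35.6 to 51.0) against 31.0% of other peaks, a ratio of 1.39 (1.17 to 1.67). Among intergenic IgG peaks alone the L1 ratio was 1.24 (1.03 to 1.48). L1 elements with names that begin with L1Md were at 36 Seh1 receptor peaks (14.9% against 3.19% of other peaks) and at 36 IgG receptor peaks (21.3% against 14.0%). Among intergenic peaks the L1Md ratio was 3.07 (2.21 to 4.27) for Seh1 and 1.25 (0.910 to 1.73) for IgG. Set against each other, the L1 share of Seh1 peaks was 0.740 (0.575 to 0.952) of that of IgG peaks at receptors but 0.318 (0.299 to 0.339) at all other genes, so the lists were closer in L1 content at receptors.

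LTR elements had the reverse order between the lists. They were at 79 Seh1 receptor peaks, 32.8% (26.9 to 39.1) against 16.8% of other Seh1 peaks, and at 23 IgG receptor peaks, 13.6% (8.83 to 19.7) against 9.45%. Within them ERVK was at 63 Seh1 receptor peaks, 26.1% (20.7 to 32.2) against 9.66%, a ratio of 2.70 (2.18 to 3.36), or 2.05 (1.65 to 2.54) among intergenic peaks. In the IgG list ERVK was at 15 receptor peaks, 8.88% (5.05 to 14.2) against 5.17%. Among intergenic IgG peaks the ratio was 1.63 (0.993 to 2.68) for ERVK and 1.40 (0.939 to 2.08) for LTR elements. The Seh1 share of ERVK was 2.95 times the IgG share at receptors (1.74 to 4.99) and 1.87 times at other genes (1.65 to 2.12), and these intervals overlap. ERV1 was at 8 Seh1 and 0 IgG receptor peaks, which allows an IgG share of up to 1.78%. Short interspersed elements (SINEs) were rarer at Seh1 receptor peaks (7 peaks, 2.90%) than at other Seh1 peaks (6.96%), a ratio of 0.417 (0.201 to 0.868). Satellite repeats were at 0 receptor peaks of either list. The share of each repeat in the DNA of the arrays themselves was not measured here, so these shares compare peaks with peaks.

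**Figure D4:**
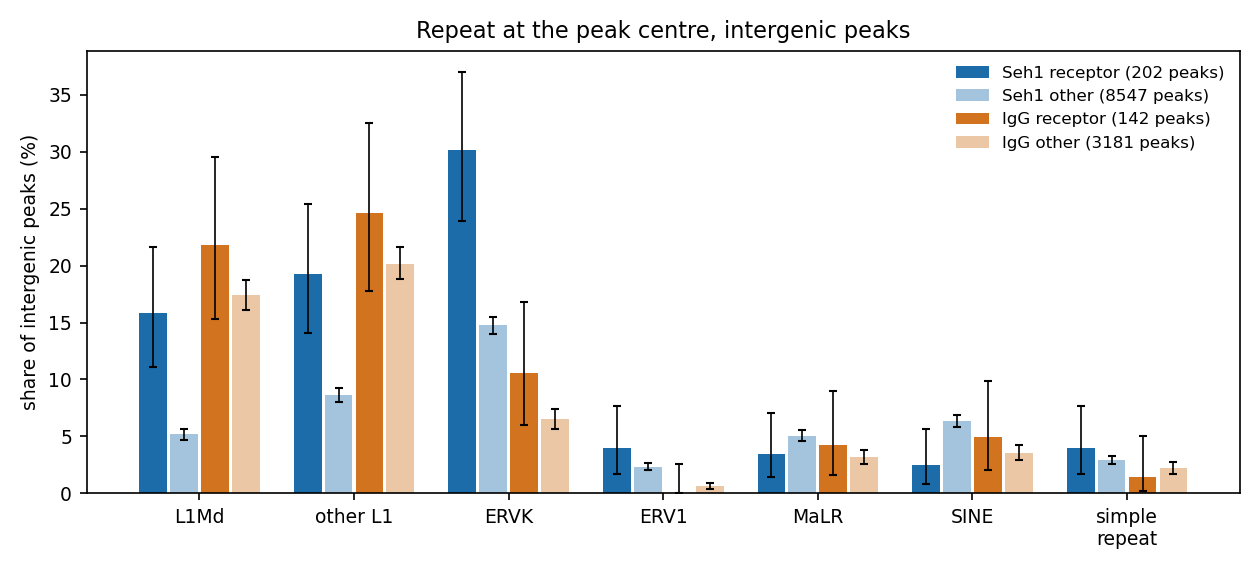
Share of intergenic peaks (percent) whose centre lies in a repeat of 7 kinds, for receptor peaks (dark) and other peaks (pale) of the Seh1 list (blue) and the IgG list (orange); lines are 95% exact binomial intervals. ERVK is the tallest bar of Seh1 receptor peaks at 30.2% and stands at 10.6% in IgG receptor peaks, whereas L1 other than L1Md stands at 19.3% and 24.6%.

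The families and the named elements differed in detail. L1 was at 26.8% of Seh1 peaks given to Olfr (40 of 149), 34.9% given to Vmn1r (15 of 43) and 44.9% given to Vmn2r genes (22 of 49), with intervals that overlapped. ERVK was even across the families at 26.8%, 25.6% and 24.5%. The most frequent single elements, picked for their frequency, were L1Md_F2 with 13 Seh1 and 12 IgG receptor peaks, L1Md_F with 12 and 1, and L1_Mus3 with 10 and 11. L1Md_F2 and L1Md_F together were at 14 of the 49 Seh1 peaks given to Vmn2r genes, 7 each, and at 0 of the 48 IgG peaks given to them. L1Md_T was at 4 Seh1 and 17 IgG receptor peaks, and Lx at 8 and 0. In the whole Seh1 and IgG lists L1Md_T was at 121 and 316 peaks, L1Md_F at 113 and 17, and Lx at 180 and 32. Their contrasts between the lists were thus not particular to receptors. L1Md_F2 was at 173 and 188 peaks of the whole lists, and L1_Mus3 at 121 and 102. Several ERVK elements were at Seh1 receptor peaks and at no IgG receptor peak: RLTR10 (5 peaks, all given to Olfr genes), IAPEY2_LTR (5), RLTRETN_Mm (4) and IAPEz-int (4). In the whole Seh1 list these elements were at 82, 50, 24 and 127 peaks, so they were not particular to receptors. RLTR10, IAPEY2_LTR and RLTRETN_Mm were at 0 peaks of the whole IgG list, and IAPEz-int was at 22.

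Most receptor genes were given a single peak. Of the 195 genes with Seh1 peaks 165 had 1, 24 had 2 and 6 had more. Of the 118 with IgG peaks 99 had 1, 13 had 2 and 6 had more. Olfr161 had the most of both, 8 Seh1 and 25 IgG peaks. All of them lay upstream, at -428 to -75.2 kb for Seh1 and at -476 to -202 kb for IgG, in the 1 Mb bin of chromosome 16 that starts at 3 Mb. It also held the widest receptor peak of the Seh1 list (924 bp at an L1Md_F2 element) and the 5 widest of the IgG list, the widest 2207 bp.

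The other genes with the most Seh1 peaks had between 0 and 2 IgG peaks. Vmn2r-ps54, a pseudogene by name, was given 6 Seh1 peaks from 0.538 to 98.0 kb downstream, 4 of them in introns, and 0 IgG peaks. Vmn1r3 was given 5 Seh1 peaks at -174.5 to -51.2 kb and 1 IgG peak at -61.4 kb. Olfr1505 was given 3 Seh1 peaks between 165.9 and 252.4 kb downstream, among them one of 687 bp at an RMER1B element, and 0 IgG peaks. Vmn1r238 was given 3 Seh1 and 2 IgG peaks, and a pair of these overlapped. The other wide Seh1 peaks were 658 bp given to Vmn2r56 at -1.89 kb, 575 bp given to Vmn1r63 at an IAPEz-int element and 537 bp given to Olfr1294 at an IAPLTR2a2_Mm element.

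Of the 5 genes with the most IgG peaks, those other than Olfr161 had 0 Seh1 peaks. Vmn2r123 was given 5 IgG peaks between 0.845 and 6.18 kb downstream, 4 in introns and 1 in an exon. Olfr461 was given 4 between -7.90 and -4.49 kb, all at ETnERV3-int, the inner part of an ERVK element. Vmn2r115 was given 4, 3 of them inside the gene, and Vmn1r77 was given 3.

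Seh1 and IgG peaks given to the same receptor gene mostly lay kilobases apart. Both kinds of peak were given to 35 receptor genes, 17.9% of those with Seh1 peaks and 29.7% of those with IgG peaks. Over protein-coding genes these shares were 17.7% (12.6 to 23.9) and 29.3% (21.2 to 38.5) for receptors, against 20.2% and 56.6% for all protein-coding genes with a peak. The closest pair of centres at these 35 genes was a median of 15.8 kb apart, with a range of 0.115 to 90.6 kb. It was within 1 kb at 3 genes, Vmn1r238, Olfr161 and Olfr93, the last of which was named after its value was seen. Of the 241 Seh1 receptor peaks 2 shared at least 1 bp with an IgG peak, 0.830% (0.101 to 2.97). In the whole Seh1 list the share was 0.372% (60 peaks), inside the receptor interval. These receptor peaks were the 924 bp peak of Olfr161, with 606 bp shared, and a 480 bp peak of Vmn1r238, with 258 bp shared.

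The genes that olfactory and vomeronasal neurons use for signalling and for choosing a receptor were covered unlike the receptors themselves. Of 40 such genes 23 (57.5%) were given a Seh1 peak and 6 (15%) an IgG peak, against 31.9% and 11.3% of all protein-coding genes. A Seh1 peak centre lay inside the gene body of 18 (45%) and an IgG centre inside 5 (12.5%), where the shares of all protein-coding genes were 19.5% and 6.26%. Of the protein-coding receptors 26 (1.78%) held a Seh1 and 14 (0.958%) an IgG centre. Among transduction genes these were Ano2, a calcium-gated chloride channel of olfactory cilia (4 Seh1 peaks), Cngb1, a subunit of the cyclic nucleotide-gated channel (3), the exchanger gene Slc24a4 (3), the chloride channel gene Ano1 (3), Ric8b, a chaperone of the olfactory G protein (2), Adcy3, its adenylyl cyclase (1), and the G protein genes Gnal and Gnao1 (1 each). Among factors tied to receptor choice they were Ebf4 (5), Ebf1 and Ebf3 (3 each) and Ebf2 (2), Nfia (3), Nfib and Nfix (1 each), Lbr, the lamin B receptor that tethers heterochromatin (2), Tet3 (2) and Bptf (2). No Seh1 centre lay inside the choice factors Lhx2, Ldb1, Emx2, Kdm1a, Atf5, Eif2ak3, Lmna, Cbx5 or Smchd1. Nor did one lie inside the signalling genes Gng13, Gnb1, Cnga2, Cnga4, Slc12a2, Omp, Rtp1, Rtp2, Reep1, Gfy, Trpc2, Gnai2 or Gng8. IgG centres lay inside Nfia (3), Nfib (3), Ric8b, Adcy3 and Smchd1 (1 each). Many of these genes are far longer than a receptor gene, and the part of gene length was not tested.

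Other chemosensory receptors and other tandem families gave a range in which the receptors' shares can be placed. A list of 82 genes held the taste, trace amine and formyl peptide receptors, the Ms4a family and Gucy2d. Ms4a genes were taken by name, whether or not they serve as chemosensory receptors. Of the 82 genes 11 (13.4%) were given a Seh1 peak and 1 (1.22%) an IgG peak. The Seh1 share of this list was close to the 13.1% of the olfactory and vomeronasal receptors. Seh1 and IgG shares were 27.0% and 14.4% for Zfp zinc-finger genes, 15.1% and 3.77% for keratins, 23.8% and 7.14% for beta-defensins (Defb), 6.90% and 6.90% for alpha-defensins (Defa) and 5.26% and 5.26% for clustered protocadherins. They were 38.1% and 6.35% for Serpin genes, 35.7% and 8.93% for Cyp2 genes, 32% and 24% for prolactin-like genes (Prl), 29.6% and 22.2% for Klr genes and 27.3% and 22.7% for Ugt genes. The highest were those of the Speer family, at 70% and 50% of its 10 genes. Mup genes, which encode urinary pheromone carriers, stood at 22.7% and 27.3%. These families differ in gene length and spacing, and no test was made between them.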

How the data were processed

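Peak lists of 1 Seh1 and 1 IgG ChIP-seq library were used. Per the submitters' processing notes, Bowtie2 and HOMER were used, without versions. Those notes name the builds hg18 and hg38, whereas the annotation command in the file headers names mm10, and coordinates are taken as mm10. The peak caller, its threshold, read filters and depths were not given in the sources used here. Each peak carried a deposited score of 0. Annotation class, nearest TSS, distance and repeat name are those of the authors' deposited lists.

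Gene positions came from a RefSeq gene table of GRCm38.p6 (49599 genes, after 340 listed below 3 Mb outside Y were left out). It matched 240 of 241 Seh1 and 164 of 169 IgG receptor peaks by gene identifier, and 2 receptor genes in each list go by another name there. The authors' TSS lay within 2 bp of that of the RefSeq window for 201 of 201 Seh1 and 141 of 141 IgG receptor peaks that had one. Counts, exact intervals and overlaps were computed with Python 3.11.15, pandas 2.3.3, NumPy 2.4.6 and SciPy 1.17.1 and plotted with matplotlib 3.10.9. The counting steps were tested on simulated peaks. A share of 0 was given the limit of 3 counts.

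Named genes were the 5 with the most peaks of each list, those of the 5 widest peaks of each, up to 12 nearest a start site within 1 kb, up to 8 with exon peaks per list, those with overlapping peaks, the end genes of the 6 clusters richest in peaks of each list, and signalling genes with a peak inside the gene. The signalling and receptor choice genes without a Seh1 centre inside were named after their values were seen. Members and lists were chosen with earlier results of these data known. Alternatives left out minimum-width peaks, dense bins, peaks with a TSS off the gene or beyond 100 kb, and pseudogenes, and changed the cluster link (500 kb), flank (50 kb), denominator and overlap rule.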

Additional observations from a re-analysis of the deposited data

How the results depend on the processing

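Of 67 alternative values for 14 results, 45 stayed within the counting interval of the reported value and 22 did not. The ratio of receptor shares stayed below 1 in all 7 of its alternatives. Counting peaks inside clusters instead of by nearest TSS gave shares of 2.47% (Seh1) and 7.32% (IgG), a ratio of 0.3374, and L1 shares of 21.86% and 32.13%. Keeping peaks within 100 kb of the TSS gave 1.791% and 4.155%. Leaving out minimum-width peaks gave 9.993% (Seh1) and 5.27% (IgG) of receptor genes with a peak, and 4.317 peaks per Mb of clusters in both lists, 290 peaks each. Seh1 and IgG peaks per Mb were 5.216 and 3.266 without dense bins and 4.896 and 3.383 with genes linked within 500 kb. Overlapping Seh1 receptor peaks numbered 4 with centres within 1 kb and 1 without dense bins. Alternatives chosen after seeing the data gave an IgG share of 2.723% without Olfr161, 5.325 and 3.611 peaks per Mb without the cluster Vmn2r-ps15 to Vmn2r-ps20, and 4.533 and 2.676 in clusters where receptors outnumber other genes. The causes were not tested. No paired analysis was possible because each group has 1 library and no result comes from a test.

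With 1 library per antibody, no replicate spread is known, and each count rests on that library. Without depth or peak height, strong and weak peaks weigh the same. Repeats and near-identical receptor copies limit how certainly reads were placed, and the read filter was not given in the sources used here.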
